A study of Mus musculus with 9 samples.

Results

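ETS transcription factors share a DNA-binding domain, the ETS domain, and 10 of their genes were followed here in mouse bone marrow (BM)-derived macrophages (Mϕs): Ets2, Fli1, Etv5, Etv3, Etv6, Elk3, Elf1, Elf4, Gabpa and Spi1. They were found by symbol among the 53379 genes of the deposited table, and all 10 were among the 12824 genes with a mean of at least 0.5 FPKM (fragments per kilobase of exon, scaled to the depth of the library) that were tested. With 16 further ETS genes, described after them, they make up 26 ETS genes in the table. BM cells of C57BL/6 mice were first grown for 3 days with CSF-1, which turns them into Mϕs, at 10 ng/ml. They were then kept for 4 days with CSF-1 alone (control), with CSF-1 and 10 ng/ml IL-4, or with CSF-1 and 100 ng/ml IL-6. All 3 groups therefore had CSF-1 throughout, and each has 3 libraries of RNA from whole cultures. These doses and times follow the sample labels. The study's methods differ in giving IL-4 at the dose of IL-6, and its legends give another dose and a shorter time. The study asked how IL-6 and IL-4 change gene expression in Mϕs, and its legends give 3 mice.

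ETS proteins read a short DNA core, GGAA, through a helix of the ETS domain, and differ in the bases they prefer around it and in their partners. PU.1, the product of Spi1, is needed to make Mϕs and holds open many of their enhancers. Ets2 and the ternary complex factors, of which Elk3 is a member, are phosphorylated by the ERK kinases that CSF-1 switches on, and Etv3 and Etv6 are known mainly as repressors. IL-6 signals through STAT3 and IL-4 through STAT6.

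The sequences below show what the 10 proteins have in common. Each is the coding sequence, 42 bases on the coding strand, around the helix that lies in the major groove of DNA, and capitals mark the codons of the 2 arginines that contact the GGA of the core. They were read from GENCODE M21 transcripts on GRCm38.
Ets2: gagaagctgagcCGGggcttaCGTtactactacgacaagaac
Fli1: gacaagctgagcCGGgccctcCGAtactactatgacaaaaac
Etv5: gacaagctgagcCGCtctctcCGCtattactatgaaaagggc
Etv3: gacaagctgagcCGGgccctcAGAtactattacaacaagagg
Etv6: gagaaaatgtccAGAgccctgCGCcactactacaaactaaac
Elk3: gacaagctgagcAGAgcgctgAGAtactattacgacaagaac
Elf1: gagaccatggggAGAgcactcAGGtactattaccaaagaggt
Elf4: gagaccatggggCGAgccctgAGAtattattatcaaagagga
Gabpa: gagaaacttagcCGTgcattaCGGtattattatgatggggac
Spi1: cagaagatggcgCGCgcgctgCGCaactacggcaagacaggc
Counted from the first residue of the longest coding sequence, the arginines are residues 418 and 421 of Ets2, 337 and 340 of Fli1, and 232 and 235 of PU.1. In Ets2 the 42 bases lie at chr16:95718971-95719012 (+ strand), and in Spi1 at chr2:91115257-91115298 (+ strand), each within 1 coding exon. In Etv3, Elf1, Elf4, Elk3 and Gabpa an intron falls inside the stretch. Fli1 shares 35 of the 42 bases and 12 of the 14 residues with Ets2. Elk3 shares 32 bases and 12 residues. Elf1 and Elf4 share 21 bases, the fewest among the 10, and 7 residues. Spi1 shares 22 bases and 5 residues, the fewest residues among the 10.

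Genes known to answer each cytokine were high in its libraries. Socs3, the feedback inhibitor induced by STAT3, was at 1.61 to 2.91 FPKM in control, 1.76 to 3.23 in IL-4 and 74.7 to 85.5 in IL-6 libraries. Arg1, the arginase that IL-4 induces through STAT6, was at 0.409 to 0.718 FPKM in control, 730.3 to 1227 in IL-4 and 2.06 to 5.33 in IL-6 libraries. All 8 Mϕ markers looked for were present, with a summed level of 16610 to 18880 FPKM in control, 6115 to 7100 in IL-4 and 20160 to 21270 in IL-6 libraries. All 8 neutrophil markers were present as well, at 998.7 to 1647, 341.5 to 532.6 and 1614 to 2224 FPKM. The 6 megakaryocyte markers summed to 320.1 to 489.0, 147.8 to 225.7 and 1235 to 2490 FPKM, of which Pf4 made up most, and the 6 mast cell and basophil markers to 13.5 to 30.1, 51.1 to 83.7 and 6.18 to 24.4 FPKM. No marker of these 4 lists was at 0. None of the 6 stromal markers reached a mean of 0.5 FPKM. In RNA from whole cultures, fewer cells of a type and less RNA per cell cannot be told apart, and the part of these markers in the results was not tested.

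Libraries differed in ways that the groups do not explain. The fragments behind them numbered 29988160 to 39909571 per library. IL-4 #3 was low for long genes. When the tested genes were split by exon length into 4 equal bins, its median difference from the mean of IL-4 #1 and #2 was -0.974 on the log2 scale in the longest bin and 0.392 in the shortest. The ETS genes are mostly long, from 2695 bases of exon in Spi1 to 10274 in Etv3 against a median of 3795, and 7 of the 10 had their lowest value in IL-4 #3, as did 46.8% of all tested genes. Results are therefore given with and without that library. Transcripts of intestinal genes were found at 30.9 to 46.0 per 1000000 fragments in the 3 control libraries and IL-4 #1, and at 0.0990 to 0.582 in IL-4 #2, IL-4 #3 and the 3 IL-6 libraries. Control and IL-6 libraries lie wholly on opposite sides of this division, so the division and the effect of IL-6 cannot be told apart between them. IL-4 #1 against the controls, and IL-6 against IL-4 #2 and #3, are comparisons within a side. The first rests on 1 IL-4 library, and the second takes in IL-4 #3, which was low for long genes. Transcripts of muscle genes were at 9.83 to 13.0 per 1000000 fragments in the control libraries and at 3.98 in IL-4 #1. In IL-4 #2, IL-4 #3 and the IL-6 libraries they were at 19.5 to 30.1. Their part in the results was not tested. A fit with the division as a term reads the division only from IL-4 #1 against IL-4 #2 and #3. It therefore takes in the low values of IL-4 #3 for long genes. For IL-6 against control it cannot decide between IL-6 and the division.

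**Figure D1:**
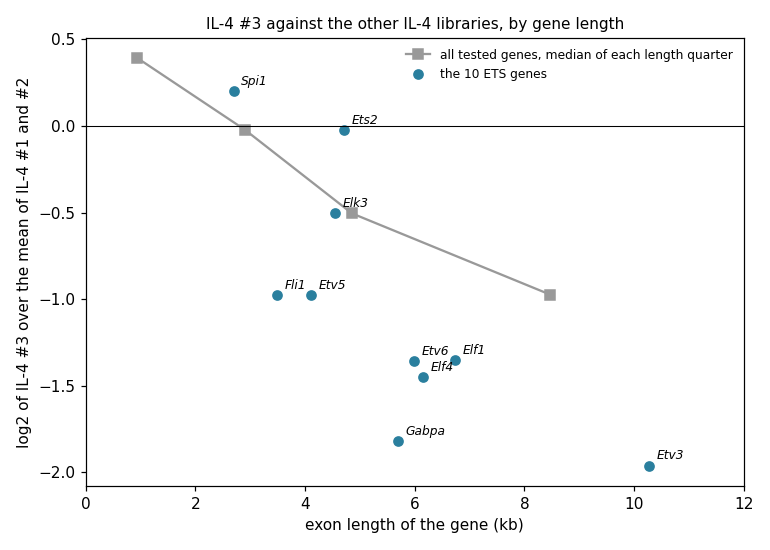
The log2 ratio of IL-4 #3 to the mean of IL-4 #1 and #2 (y axis) is plotted against exon length in kb (x axis) for the 10 ETS genes (points), with the median of all tested genes in each of 4 bins of length (squares, from 0.392 in the shortest to -0.974 in the longest). Spi1 and Ets2 lie near 0, and Etv3 and Gabpa lie lowest.

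Spi1 was by far the most abundant ETS transcript in each group. Mean FPKM were 108.7 for control, 121.8 for IL-4 and 116.8 for IL-6 Mϕs, and no library of another of the 10 genes came near it. In control Mϕs the next gene was Fli1, with a mean of 18.7 ± 2.44 FPKM (SD, n = 3), and the libraries of every following neighbour in the order overlapped down to Gabpa (7.45 ± 1.63). Ets2 (5.32 ± 0.488) and Etv5 (3.24 ± 0.626) were the lowest and stood apart from Gabpa and from each other. In IL-6 Mϕs, Etv3 (27.7 ± 3.89), Elf4 (22.7 ± 1.84) and Fli1 (19.4 ± 0.888) followed Spi1, each apart from the one before, while Fli1, Etv6 and Ets2 were neighbours whose libraries overlapped. Ets2 was thus ninth of the 10 in control and sixth in IL-6 Mϕs. In IL-4 Mϕs the lowest was Elk3 (3.72 ± 0.767), apart from Ets2 above it (6.45 ± 0.109), and all genes from Etv3 to Ets2 overlapped with their neighbours.

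**Figure D2:**
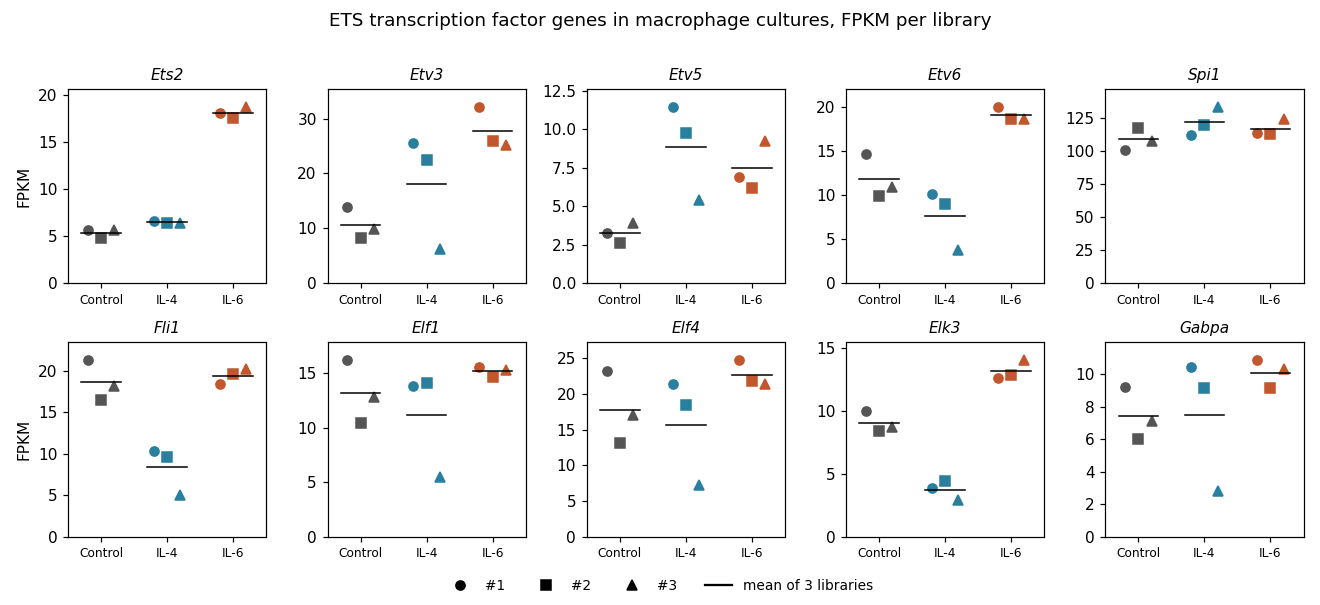
FPKM (y axis, from 0, with its own scale for each gene) of the 10 ETS genes in control, IL-4 and IL-6 libraries (x axis), with a circle, square and triangle for libraries #1, #2 and #3 and a line for the mean of 3. Ets2 is between 17.5 and 18.8 FPKM in IL-6 and at most 6.57 in the other libraries. The triangle is the lowest IL-4 symbol for all genes but Spi1, though by little for Ets2.

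Tests were made with limma on log2(FPKM + 0.1) over all 12824 genes with Benjamini-Hochberg adjustment, and a gene passed at an adjusted p under 0.05. Differences below are on that scale, with their SE. With IL-4 against control, 1 of the 10 genes rose (Etv5) and 2 fell (Fli1, Elk3), where 8.55% of all tested genes rose and 16.3% fell. The median difference of the 10 was -0.23, and that of all tested genes -0.20. With IL-6 against control, 2 rose (Ets2, Etv5) and 0 fell, where 4.58% of tested genes rose and 3.82% fell, and the median was 0.50 against -0.004 of all genes. With the replicate number as a block, 1 rose with IL-6 (Ets2). Between IL-6 and IL-4, 4 were higher with IL-6 (Ets2, Etv6, Fli1, Elk3) and 0 lower, where 20.8% of tested genes were higher and 13.3% lower, and the median was 0.76 against 0.22 of all genes.

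Without IL-4 #3, 2 genes passed as higher with IL-4 (Etv3, Etv5) and 2 as lower (Fli1, Elk3), beside 15.3% and 22.5% of tested genes. Against control, 5 passed as higher with IL-6 (Ets2, Etv3, Etv5, Etv6, Elk3) and 0 as lower, beside 12.3% and 12.4%. Of IL-6 against IL-4 the genes that passed were Ets2, Etv6, Fli1 and Elk3 again, beside 24.7% of tested genes higher and 18.5% lower. The IL-6 and control values are the same in both fits. Only the shared estimate of the spread, which takes in IL-4 #3, differs. The medians above for the comparisons with IL-4 take in that library too. Without it, IL-6 minus IL-4 was 0.95 to 1.65 for Ets2, Etv6, Fli1 and Elk3. It was 0.01 to 0.20 for Etv3, Spi1, Elf1, Elf4 and Gabpa. For Etv5 it was -0.52, and the median of all tested genes was 0.089. IL-4 minus control was then 0.10 to 1.69 for Ets2, Etv3, Etv5, Spi1, Elf1, Elf4 and Gabpa. For Etv6, Fli1 and Elk3 it was -0.28, -0.89 and -1.11, and the median of all tested genes was -0.065.

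Library by library, for 5 of the 10 genes (Ets2, Etv3, Etv5, Etv6, Elk3) the lowest IL-6 library exceeded the highest control, and for 0 the reverse held, where 20.0% of tested genes lay wholly above and 23.2% below. With IL-4 the libraries lay wholly above control for Ets2 and Etv5 and below for Fli1 and Elk3, where 13.5% of tested genes lay above and 26.8% below. Against IL-4, 6 genes lay wholly above with IL-6 (Ets2, Etv6, Fli1, Elf1, Elf4, Elk3) and 0 below, where 36.3% of tested genes lay above and 20.6% below. For Elf4 the gap was between 21.36 and 21.35 FPKM.

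**Figure D3:**
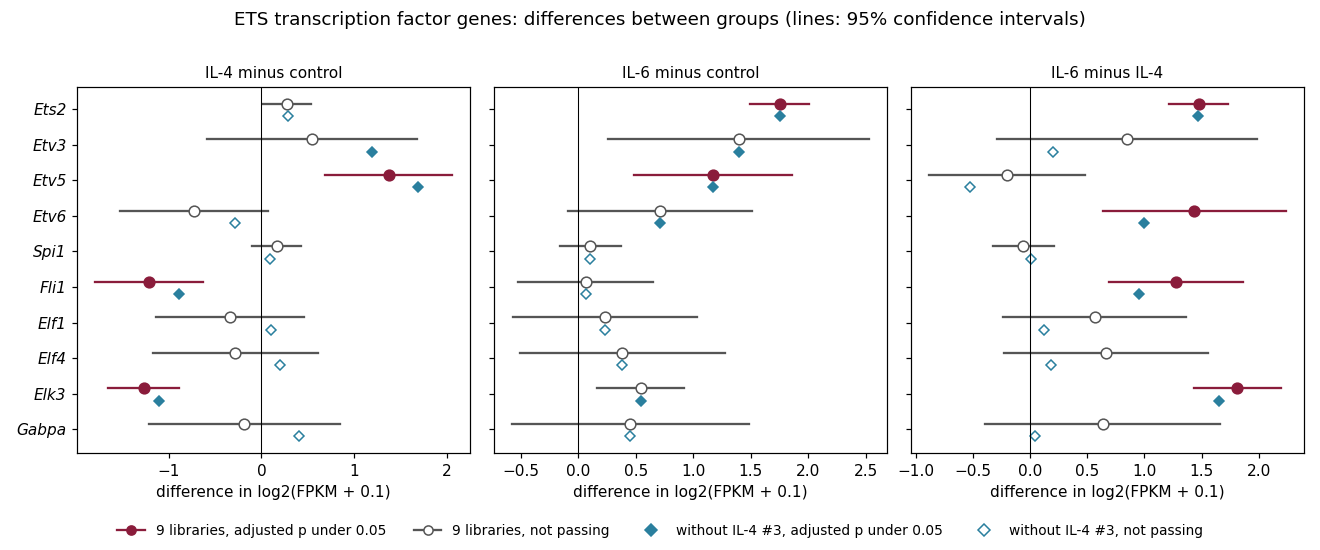
Differences in log2(FPKM + 0.1) (x axes) of the 10 ETS genes for IL-4 minus control, IL-6 minus control and IL-6 minus IL-4. Circles and lines are estimates with 95% confidence intervals from 9 libraries, diamonds are estimates without IL-4 #3, and filled symbols have an adjusted p under 0.05. Ets2 and Elk3 have narrow intervals, and without IL-4 #3 the diamonds of Elf1, Elf4 and Gabpa for IL-6 minus IL-4 move towards 0.

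Ets2, an activator at the end of the CSF-1 and ERK pathway, responded to IL-6. It was at 5.59, 4.76 and 5.62 FPKM in control #1 to #3, 6.57, 6.40 and 6.37 in IL-4, and 18.03, 17.5 and 18.8 in IL-6 libraries. All 3 IL-6 libraries stood far above the other 6, which lay close together. The mean with IL-6 was 3.40 times that of control, a difference of 1.75 ± 0.11 (adjusted p = 9.63e-05), and 2.81 times that of IL-4, a difference of 1.47 ± 0.11 (adjusted p = 3.58e-05). Within a side of the intestinal division, the IL-6 mean was 2.83 times that of IL-4 #2 and #3. With the division as a term IL-6 against control gave 1.79 ± 0.21 (adjusted p = 0.0131), a fit that cannot decide between IL-6 and the division. IL-4 against control gave 0.28 ± 0.11, with a 95% interval of 0.02 to 0.53 and an adjusted p of 0.112. It passed with median-ratio rescaling (0.47, adjusted p = 0.0308), with quantile normalization (0.44, adjusted p = 0.0247) and with the trends on length and GC content removed (0.52, adjusted p = 0.015). Both differences with IL-6 passed under each of the 9 fits that leave out a library and under all 12 other alternatives. Ets2 (chr16:95702075-95721051, + strand) was counted over a length of 4710 bases that gives whole fragments, and 672 to 2963 fragments lie behind its values.

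Fli1, a close relative of Ets2 and Erg that is needed for megakaryocytes and is made throughout the blood system, responded to IL-4. It was at 21.3, 16.5 and 18.2 FPKM in control, 10.4, 9.59 and 5.08 in IL-4, and 18.5, 19.6 and 20.2 in IL-6 libraries. The 3 IL-4 libraries were the lowest 3, and control and IL-6 overlapped. The IL-4 mean was 0.447 times control (-1.21 ± 0.25, adjusted p = 0.0103), and without IL-4 #3 the difference was -0.89 ± 0.12 (adjusted p = 0.000759). IL-4 #1, on the same side of the division as the controls, was at 0.556 times their mean. With the division as a term in the model the difference was -0.83 ± 0.32 and no longer passed (adjusted p = 0.169). Fli1 was higher with IL-6 than with IL-4 by 1.27 ± 0.25 (adjusted p = 0.00616), while IL-6 against control gave 0.06 ± 0.25 with an interval of -0.52 to 0.65. The megakaryocyte markers summed to 320.1 to 489.0 FPKM in control, 147.8 to 225.7 in IL-4 and 1235 to 2490 in IL-6 libraries. They were thus lower with IL-4, where Fli1 fell, and higher with IL-6 against control, where Fli1 was not called. The part of such cells in the values of Fli1 was not tested.

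Etv5, an activator of the group that also holds Etv1 and Etv4, rose with both cytokines. It was at 3.23, 2.63 and 3.88 FPKM in control, 11.5, 9.77 and 5.40 in IL-4, and 6.89, 6.20 and 9.28 in IL-6 libraries. Every treated library was above every control library, and IL-4 and IL-6 overlapped. The IL-4 mean was 2.74 times control, a difference of 1.37 ± 0.30 (adjusted p = 0.0117) that passed in all alternatives, and IL-4 #1 was at 3.54 times the mean of the controls. The IL-6 mean was 2.30 times control, a difference of 1.17 ± 0.30 (adjusted p = 0.0498). That call passed in 2 of the 9 fits without a library and 5 of the 12 other alternatives, and not with the replicate number as a block (adjusted p = 0.0971) or with the division as a term (adjusted p = 0.136). IL-6 minus IL-4 was -0.20 ± 0.30, with an interval of -0.89 to 0.48.

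The repressors Etv3, Etv6 and Elk3 had their highest means in IL-6 Mϕs. Etv3, which is known to slow the cell cycle as Mϕs mature, was at 13.9, 8.26 and 9.85 FPKM in control, 25.5, 22.4 and 6.16 in IL-4, and 32.2, 25.8 and 25.1 in IL-6 libraries. IL-4 #1 and #2 lay above every control library and IL-4 #3 below, and of the IL-4 libraries only #1 reached the range of the IL-6 libraries. With all 9 libraries the IL-6 difference from control, 1.39 ± 0.49, did not pass (adjusted p = 0.144), nor did that of IL-4, 0.55 ± 0.49 (adjusted p = 0.456). Without IL-4 #3 they were 1.39 ± 0.19 (adjusted p = 0.00179) and 1.19 ± 0.21 (adjusted p = 0.00336), and IL-6 minus IL-4 was 0.20 ± 0.21 (adjusted p = 0.469). IL-4 #1 was at 2.396 times the mean of the controls. At 10274 bases of exon, Etv3 is the longest of the 10 genes.

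Etv6, a repressor that assembles through its own oligomerisation domain and is needed for blood formation in the marrow, was at 14.7, 9.87 and 10.95 FPKM in control, 10.1, 9.05 and 3.74 in IL-4, and 20.1, 18.7 and 18.7 in IL-6 libraries. All IL-6 libraries were above all others, and control and IL-4 overlapped. IL-6 exceeded IL-4 by 1.44 ± 0.35 (adjusted p = 0.0143), and by 0.99 ± 0.16 without IL-4 #3 (adjusted p = 0.00178). Without IL-6 #1 the adjusted p was 0.0506. Against control, IL-6 gave 0.71 ± 0.35 (adjusted p = 0.295) with 9 libraries and 0.71 ± 0.14 (adjusted p = 0.0102) without IL-4 #3.

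Elk3, the ternary complex factor also called Net, which represses with SRF until ERK phosphorylates it, fell with IL-4 and was higher with IL-6 than with IL-4. It was at 9.95, 8.38 and 8.73 FPKM in control, 3.83, 4.43 and 2.91 in IL-4, and 12.6, 12.9 and 14.03 in IL-6 libraries, with no overlap between any of the groups. The IL-4 mean was 0.413 times control (-1.27 ± 0.17, adjusted p = 0.000939). IL-4 #1 alone was at 0.424 times the controls, and the call passed in all alternatives. IL-6 exceeded IL-4 3.54-fold (1.81 ± 0.17, adjusted p = 0.0001), and IL-4 #2 and #3, on its own side of the division, 3.59-fold. The latter takes in IL-4 #3, which was at 0.704 times the mean of IL-4 #1 and #2 for Elk3. IL-6 against control gave 0.54 ± 0.17, which passed without IL-4 #3 (adjusted p = 0.00705) but not with it (adjusted p = 0.0943), and which also passed with median-ratio rescaling (adjusted p = 0.0239) and quantile normalization (adjusted p = 0.0227). The relatives Elk1 and Elk4 gave -0.13 ± 0.40 and 0.19 ± 0.19 with IL-4 (adjusted p = 0.831 and 0.503), and Srf, the shared partner, 0.22 ± 0.11 (adjusted p = 0.213). Whether Elk3 differs from them was not tested.

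Promoters of Elk3 and Etv6 are shown because both genes were higher with IL-6 than with IL-4 and their 250 bases before the RefSeq start contain no annotated exon of the gene. Capitals mark the ETS core GGAA on either strand (TTCC on the strand shown). The Elk3 promoter is at chr10:93311160-93311409 (- strand) and that of Etv6 at chr6:134035450-134035699 (+ strand), both in RefSeq on GRCm38.
Elk3: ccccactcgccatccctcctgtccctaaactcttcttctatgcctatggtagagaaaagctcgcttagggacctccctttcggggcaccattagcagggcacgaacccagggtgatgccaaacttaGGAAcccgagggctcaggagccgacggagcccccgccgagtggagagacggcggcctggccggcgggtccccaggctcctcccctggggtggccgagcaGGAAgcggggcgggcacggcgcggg
Etv6: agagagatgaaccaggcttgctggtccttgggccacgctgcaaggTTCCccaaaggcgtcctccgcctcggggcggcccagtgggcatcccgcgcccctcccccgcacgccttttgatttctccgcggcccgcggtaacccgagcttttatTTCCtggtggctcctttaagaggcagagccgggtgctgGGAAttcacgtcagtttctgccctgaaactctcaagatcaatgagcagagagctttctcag
Elk3 has 2 such cores and Etv6 has 3. At least 2 were found in 76.8% and at least 3 in 54.7% of 32851 mouse promoters of this length. Entries were found for 8 of the 10 genes, Spi1 and Fli1 having none, and each of the 8 held a core in at least 1 of its promoters, as did 94.2% of all genes. The letters TTCNNNGAA, which most STAT proteins prefer, and the same letters with 1 more N in the middle, which STAT6 prefers, were searched on both strands. Each matched in 0 of the 8 genes, beside 8.1% and 6.8% of all genes. A match of letters is not a binding site, and the lack of a match says only that these letters are not in the window.

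Elf1, Elf4 and Gabpa, activators with broad expression, did not pass in any comparison with or without IL-4 #3. Elf1, which is made throughout the blood system, was at 16.2, 10.5 and 12.8 FPKM in control, 13.8, 14.1 and 5.48 in IL-4, and 15.6, 14.7 and 15.4 in IL-6 libraries. Elf4, which restrains the proliferation of T cells, was at 23.3, 13.1 and 17.0 FPKM in control, 21.4, 18.5 and 7.30 in IL-4, and 24.8, 21.9 and 21.4 in IL-6 libraries. Gabpa, the DNA-binding subunit of GABP, which drives genes of the mitochondrion, was at 9.22, 6.02 and 7.09 FPKM in control, 10.4, 9.17 and 2.78 in IL-4, and 10.9, 9.12 and 10.3 in IL-6 libraries. In each of the 3 genes IL-4 #3 was far below every other library. IL-6 minus IL-4 was 0.57 ± 0.35 for Elf1, 0.66 ± 0.39 for Elf4 and 0.64 ± 0.45 for Gabpa (adjusted p = 0.223, 0.204 and 0.282). Without IL-4 #3 the differences were 0.12 ± 0.16, 0.19 ± 0.22 and 0.04 ± 0.18.

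Across all 9 libraries these 3 genes went together, with Pearson's r of 0.983 between Elf1 and Elf4, 0.975 between Elf1 and Gabpa and 0.979 between Elf4 and Gabpa. Without IL-4 #3 the values were 0.954, 0.867 and 0.915. Fli1 and Elk3 had an r of 0.935 with and without that library. These are descriptions over libraries that share groups and gene length.

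Spi1, the gene of PU.1, did not pass in any of the 3 comparisons. It was at 100.4, 117.7 and 107.9 FPKM in control, 112.0, 119.9 and 133.6 in IL-4, and 113.4, 113.0 and 124.0 in IL-6 libraries, and the 3 groups overlapped. IL-4 minus control was 0.16 ± 0.12 (interval -0.10 to 0.43), IL-6 minus control 0.11 ± 0.12 (-0.16 to 0.37), and IL-6 minus IL-4 -0.06 ± 0.12 (-0.33 to 0.21), with adjusted p of 0.346, 0.671 and 0.703. The intervals leave room for changes of up to 0.43 on the log2 scale. With the trends on length and GC content removed, IL-4 minus control was 0.27 (adjusted p = 0.0365), the only alternative in which Spi1 passed.

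Of the 16 other ETS genes, 8 had a mean of at least 0.5 FPKM. With IL-4 2 of the 8 fell (Spic, Erg) and 0 rose, with IL-6 none passed, and between IL-6 and IL-4 the same 2 were higher with IL-6. Of all tested genes, 16.3% fell and 8.55% rose with IL-4, and 20.8% were higher with IL-6 than with IL-4. Spic, a relative of PU.1 that red pulp Mϕs of the spleen need, was at 12.9, 16.3 and 13.4 FPKM in control, 0.663, 0.868 and 0.698 in IL-4, and 15.8, 19.0 and 19.1 in IL-6 libraries. IL-4 libraries were far below all others. The IL-4 mean was 0.0522 times control (-4.09 ± 0.16, adjusted p = 2.44e-06), and IL-6 was 24.2 times IL-4 (4.43 ± 0.16, adjusted p = 1.05e-06). IL-4 #1 alone was at 0.0466 times the controls. IL-6 against control gave 0.34 ± 0.16 (adjusted p = 0.268).

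Erg, which marks blood stem cells, megakaryocytes and endothelium, was low, at 0.835, 0.876 and 0.831 FPKM in control, 0.447, 0.505 and 0.159 in IL-4, and 1.49, 1.70 and 1.77 in IL-6 libraries, from 22 to 192 fragments. The groups did not overlap. IL-4 minus control was -1.10 ± 0.32 (adjusted p = 0.0382), a call kept in 3 of 9 fits without a library and lost with the replicate number as a block (adjusted p = 0.0554) and with the division as a term (adjusted p = 0.357). Without IL-4 #3 it was -0.72 ± 0.17 (adjusted p = 0.0120). IL-6 minus IL-4 was 1.99 ± 0.32 (adjusted p = 0.00216) and passed in all alternatives. IL-6 minus control was 0.88 ± 0.32 (adjusted p = 0.156), and 0.88 ± 0.15 (adjusted p = 0.00511) without IL-4 #3. Of the 6 megakaryocyte markers, 5 rose with IL-6 against control and 3 fell with IL-4. Of the 6 endothelial markers, only Esam had a mean of at least 0.5 FPKM, and it rose with IL-6 against control (1.71 ± 0.33, adjusted p = 0.0171) and was higher with IL-6 than with IL-4 (1.37 ± 0.33, adjusted p = 0.0143). Its IL-4 difference from control was 0.34 ± 0.33 (adjusted p = 0.486). Kdr, a receptor for VEGF that lay under the filter, had a mean of 0.278 FPKM in control Mϕs, against 0.0880 with IL-4 and 0.563 with IL-6, with no overlap between groups. The other 4, Cdh5, Tek, Tie1 and Emcn, reached at most 0.331 FPKM in a library. The part of such cells in the values of Erg was not tested.

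Spib, another relative of PU.1, was at 6.03 to 9.39 FPKM in control, 3.39 to 5.45 in IL-4 and 4.76 to 7.08 in IL-6 libraries, and IL-4 minus control was -0.81 ± 0.26 (adjusted p = 0.0519). Ets1, the nearest relative of Ets2, was at 1.86 to 2.41, 1.48 to 3.48 and 2.56 to 3.41 FPKM in the 3 groups. Its IL-6 difference from control was 0.45 ± 0.31 (adjusted p = 0.489). Erf, a repressor related to Etv3, was at 8.27 to 9.01, 6.77 to 9.54 and 9.22 to 10.7 FPKM, and Elf2 at 6.86 to 8.50, 3.63 to 6.90 and 7.43 to 8.43 FPKM. Elk1 and Elk4 had means of 4.18 to 6.16 FPKM over the groups.

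Etv1, the relative of Etv5, lay under the filter but had enough fragments, 24 to 405, to be read. It was at 0.0991, 0.0602 and 0.0965 FPKM in control, 0.746, 1.01 and 0.571 in IL-4, and 0.300, 0.244 and 0.284 in IL-6 libraries, with no overlap between groups. In the fit without a filter, IL-4 minus control was 2.22 ± 0.25 (adjusted p = 0.00108) and IL-6 minus control 1.03 ± 0.25 (adjusted p = 0.0769). The added 0.1 FPKM shrinks these differences, since the means were 9.08 and 3.24 times control. Etv4 had at most 6 fragments in a library, Elf5 3, Etv2 2 and Fev 1. The epithelial ETS genes Elf3 and Ehf had 6 to 10 and 7 to 20 fragments in the control libraries and IL-4 #1 and 0 to 1 and 0 to 3 in the others, along the division of intestinal transcripts, and Spdef was above 0 in control #2 and #3 only.

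**Figure D4:**
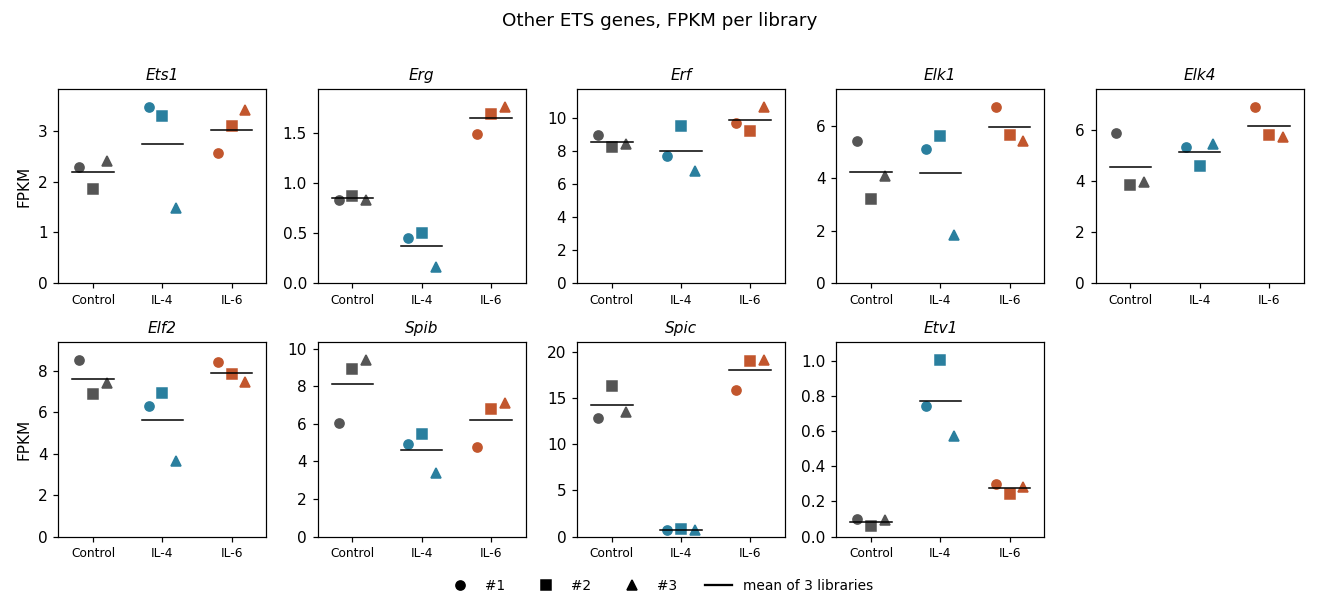
FPKM (y axis, from 0, with its own scale for each gene) of the 8 other ETS genes that were tested and of Etv1 in control, IL-4 and IL-6 libraries (x axis), with symbols as for the 10 genes. Spic is near 0 in the IL-4 libraries, and the 3 groups of Erg and of Etv1 do not overlap.

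ETS proteins act with partners, and 12 of 13 partner genes looked at were tested. The counts in this and the following lists stand beside these shares of all tested genes. With IL-4 8.55% rose and 16.3% fell, and with IL-6 4.58% rose and 3.82% fell. Between IL-6 and IL-4 20.8% were higher with IL-6 and 13.3% lower. With IL-4, Irf4 and Jun rose and Irf8 fell. Irf4 and Irf8 encode the factors that bind beside PU.1 on composite sites. Irf4 was 2.83 ± 0.31 higher with IL-4 (adjusted p = 0.000426), at 8.15 to 19.8 FPKM against 1.59 to 2.21 in control libraries, and Irf8 fell by 1.25 ± 0.16 (adjusted p = 0.000837), at 14.3 to 22.2 against 42.8 to 43.8 FPKM. Spi1 itself was not called there. Jun, the AP-1 subunit, gave 0.89 ± 0.16 (adjusted p = 0.00565). With IL-6 1 partner rose, Sbno2, a corepressor that STAT3 induces, from 10.8 to 13.4 FPKM in control to 30.03 to 32.05 in IL-6 libraries (1.38 ± 0.27, adjusted p = 0.0187). Set against IL-4, IL-6 had 3 higher and 2 lower, from Sbno2 (1.99 ± 0.27, adjusted p = 0.000934) to Irf4 (-3.11 ± 0.31, adjusted p = 0.000184).

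Of 13 genes of the CSF-1 and ERK pathway that feeds ETS factors, 11 were tested. With IL-4 3 rose and 1 fell, and with IL-6 2 rose and 0 fell. The genes that rose encode inhibitors of the pathway. Spred2 gave the largest rise with IL-4, 1.59 ± 0.30 (adjusted p = 0.00617), and Spry2 the smallest, 0.76 ± 0.19 (adjusted p = 0.0215), while Csf1r, the CSF-1 receptor, fell, -1.24 ± 0.27 (adjusted p = 0.0123). Spred1 rose with IL-6 by 1.44 ± 0.28 (adjusted p = 0.0185), at 15.4 to 18.5 FPKM against 4.66 to 7.15 in control libraries, and Spry2 by 0.76 ± 0.19 (adjusted p = 0.0478). IL-6 exceeded IL-4 for 2 and was lower for 0, namely Csf1r (1.21 ± 0.27, adjusted p = 0.0104) and Dusp6, a phosphatase of ERK (1.09 ± 0.25, adjusted p = 0.0113).

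Of 12 genes known as targets of PU.1, 5 did not pass with IL-4, 10 with IL-6 against control and 4 between IL-6 and IL-4. Spi1 passed in none of these comparisons. With IL-4 1 target rose, Csf2ra (0.86 ± 0.19, adjusted p = 0.0134), and 6 fell, from Ncf1 (-0.68 ± 0.11, adjusted p = 0.00229) to Cd14 (-2.53 ± 0.27, adjusted p = 0.000366). Of all tested genes 8.55% rose and 16.3% fell. The median was -0.67 over the 12 against -0.20 over all genes. With IL-6 2 rose, Cd14 (1.27 ± 0.27, adjusted p = 0.0262) and Msr1 (0.88 ± 0.21, adjusted p = 0.0381), and 0 fell. Between IL-6 and IL-4 7 were higher with IL-6, up to Cd14 (3.80 ± 0.27, adjusted p = 2.9e-05), and 1 was lower, Csf2ra (-0.99 ± 0.19, adjusted p = 0.00552). The 8 neutrophil markers moved with several of these genes, as 7 fell with IL-4 and 8 were higher with IL-6 than with IL-4. Of the 8 Mϕ markers, 5 fell with IL-4 and 4 were higher with IL-6 than with IL-4, with 0 the other way. Csf1r, Itgam, Fcgr1 and Lyz2 are both Mϕ markers and targets in this list. The part of either cell type was not tested.

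Among 6 genes known as targets of Ets2, 2 rose and 1 fell with IL-6. Junb rose by 1.32 ± 0.13 (adjusted p = 0.000777) and Msr1 by the value given above, while Plau, the urokinase gene, fell (-1.94 ± 0.37, adjusted p = 0.0157). With IL-4 Junb rose by 0.59 ± 0.13 (adjusted p = 0.0131), and Csf1r and Mmp9 fell, the latter by the larger difference (-1.80 ± 0.24, adjusted p = 0.00103). Between IL-6 and IL-4 3 were higher with IL-6, at most Mmp9 (1.63 ± 0.24, adjusted p = 0.00125), and 2 lower, at most Plau (-2.49 ± 0.37, adjusted p = 0.00135). Of 8 targets of GABP, 1 rose with IL-4, Itgb2 (0.95 ± 0.25, adjusted p = 0.0251), a call kept in 4 of 9 fits without a library, and 0 passed with IL-6 against control, as for Gabpa. Between IL-6 and IL-4 2 were lower with IL-6, Cox5b (-1.06 ± 0.33, adjusted p = 0.0375) and Itgb2 (-0.88 ± 0.25, adjusted p = 0.0269). Each of these calls passed in 4 of 9 fits without a library. Without IL-4 #3 they were -0.65 ± 0.17 (adjusted p = 0.0181) and -1.21 ± 0.09 (adjusted p = 3.76e-05), and that of Itgb2 was lost with the division as a term (adjusted p = 0.0616).

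Several calls in these lists, which share Csf1r and Msr1, were lost when a library was left out or with the division as a term. Of the 9 fits without a library, Spry2 passed with IL-6 against control in 1, Msr1 in 2, Cd14 in 3, and Sbno2, Spred1 and Plau in 4 each. With IL-4 against control Itgb2 passed in 4, Spry2 in 6, Spred1 in 7, and Csf2ra and Junb in 8. Without IL-4 #3 the IL-6 calls of Sbno2, Spred1, Plau and Cd14 all passed. Over the 9 fits their differences from control were 1.31 to 1.47, 1.26 to 1.56, -2.09 to -1.73 and 1.18 to 1.36. With the division as a term none of the named IL-6 calls against control of tested genes in these lists passed. Of those with IL-4, Jun, Csf1r, Spry2, Csf2ra, Junb and Itgb2 were lost. For the IL-6 calls that fit cannot decide between IL-6 and the division, which it reads only within the IL-4 libraries. As a block, the replicate number ended the call of Msr1 with IL-6 (adjusted p = 0.0655).

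The genes whose values were most like those of each ETS gene were found by Pearson's r on log2(FPKM + 0.1) over the 9 libraries. For Ets2 they were Cpne8 (0.994), 2010005H15Rik (0.993) and Nrg1 (0.992), and for Fli1 Trpm2 (0.999), Serp1 (0.998) and Tlr9 (0.997). For Elk3 they were Ccdc125 (0.998), Ncf1 (0.995) and Vasp (0.994), and for Etv6 Klf3, Sipa1l2 and Narf (each 0.997). Etv5 had Ccr1 (0.972), Tnfrsf23 (0.962) and Pla2g4a (0.958), and Spi1 Tmem39b (0.956), Eci2 (0.946) and Chmp5 (0.933). Etv3 had Ddhd1, Gk and Gm30934 (0.987 to 0.992), Elf1 Yeats2, Jak1 and Sos2 (0.995 to 0.998), Elf4 Rsbn1, Taf1 and Usp9x (0.998 to 0.999), and Gabpa Fubp3, Usp54 and Lrrfip1 (each 0.995). These are the highest of 12824 values each, over points that share groups, and the low values of IL-4 #3 count among them.

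Exons of some of these genes lie against those of a gene on the other strand, and the strand setting of the counting is not given in the sources used here. Gabpa shares 397 bases with Atp5j, which reached 61.9 FPKM, Elf1 shares 327 with Wbp4 (up to 6.31 FPKM), Elk3 316 with Cdk17 (up to 9.13 FPKM) and Etv6 135 with Gm17089 (up to 0.402 FPKM). Their values may therefore hold fragments of the other gene.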

How the data were processed

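Libraries were made with a stranded mRNA kit and sequenced on a HiSeq2500. The submitters' notes and methods name STAR 2.4.2a, GRCm38 and Cufflinks 2.2.1, and the authors deposited FPKM for 53379 genes in 9 libraries, with no counts. Of the gene identifiers, 94.8% matched GENCODE M21, which gave symbols, positions and exon lengths. Values under 200 fragments were whole fragments over those lengths for 109680 of 109680 values (within 0.05), so fragments could be read back. They cover counting error only. Ets2's identifier version is not in M21, and the length giving whole fragments was used.

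FPKM were transformed as log2(FPKM + 0.1), filtered at a mean of at least 0.5 and fitted with limma 3.58.1 (R 4.3.3), with 3 groups in one model, the trend and robust options, two-sided tests and Benjamini-Hochberg adjustment. The fit was tested on simulated data. Folds are ratios of mean FPKM. The members and lists were chosen with earlier results of these data known. Some pathway genes are not reported here. The text names the 10 genes, the other ETS genes by level, in each list the called genes with the largest and smallest difference, the 3 most similar genes, and Socs3 and Arg1. Others, such as Jun, Irf8, Srf, Spred1, Spry1 and the markers, were chosen after their values were seen.

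Alternatives were other pseudocounts and filters, rescaling, quantile normalization, the replicate number as a block, the library division as a term, voom on fragments, and leaving out each library. Removing each library's trends on length and GC content was chosen after seeing the data. Columns carry m1 to m3, and whether a number marks the same mouse in each group is not stated. Deviations of same-numbered libraries correlated at 0.408, 0.201 and 0.166 between control and IL-6, each over 0.1, so the blocked fit is given beside those results. Figures were drawn with matplotlib 3.10.9.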

Additional observations from a re-analysis of the deposited data

How the results depend on the processing

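Counts of the 10 genes passing depended on the fit in both comparisons with control. For IL-6 it was 2 as reported, 1 with a pseudocount of 1 or 0.01, without a filter, without the trend and robust options, with the replicate block, with the library division as a term and with voom on fragments, 3 with median-ratio rescaling and with quantile normalization, where Elk3 joined, 5 when only the groups compared were fitted, and 4 with length and GC trends removed. Leaving out a library gave 1 to 5, with 5 without IL-4 #3 and 1 without each control library, each IL-6 library or IL-4 #2. For IL-4 against control the count of 3 became 6 with length and GC trends removed, where Ets2, Etv3 and Spi1 joined, 4 with median-ratio rescaling and with quantile normalization, where Ets2 joined, 2 with the library division as a term, where Fli1 was lost, and 3 to 4 without a library. For IL-6 against IL-4 it was 4, and 3 to 4 without a library, Etv6 being lost without IL-6 #1. Median-ratio rescaling moved the median of all tested genes from -0.197 to -0.008 for IL-4 and from 0.217 to 0.022 for IL-6 against IL-4, and the share of calls that were higher from 34.4% to 49.3% and from 61.1% to 50.8%. With length and GC trends removed, IL-6 minus IL-4 turned to -0.30 for Msr1, which was not called as reported. Same-numbered libraries did not pair between control and IL-4, where their deviations correlated at 0.521, -0.415 and 0.0777, or between IL-4 and IL-6, at 0.281, -0.0612 and 0.153. The replicate block lost Etv5 with IL-6 and changed no other call among the 10 genes. The cause of these shifts was not tested. Depth did not limit the 10 genes, which had at least 323 fragments in each library, while Erg, Etv1 and the ETS genes under the filter rest on few.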
